A study of Homo sapiens with 6 samples.

Results

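ISOC1, ARHGAP1, PRUNE1 and BZW2 were studied in A549, an established human lung cancer epithelial cell line, after transfection of siRNAs against MYEOV. The 4 genes were chosen by their signals on these same arrays: with MYEOV siRNA 2 they lay far below the control, and with MYEOV siRNA 1 much less or not at all. Each had 1 named row on the array, and they are 4 of 14884 genes with a named row and 4 of the 7442 bright enough to be tested. Every comparison of the design was used in choosing them, so their own differences are given as a description with no test. The tests concern related genes that the choice did not use, though their lists were chosen with earlier results of these data known.

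The series held 6 arrays in 3 groups of 2: A549 transfected with a control siRNA (siNC), with siMYEOV #1 or with siMYEOV #2. All 3 groups received an siRNA through the same lipid reagent, and total RNA was taken at 48 hours in each. Whether the 2 arrays of a group stand for separate cultures is not given in the labels, and neither siRNA sequence is given in the sources used here. Errors and p-values therefore cover only array-to-array spread, which may be technical. Values are log2 RMA signals, in which 1 unit is a doubling of signal. In bulk RNA a strong fall in some cells and a weaker one in all cells cannot be told apart.

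An siRNA is a short RNA duplex whose guide strand directs cleavage of a matching mRNA. The 4 genes come from separate branches of cell biology. BZW2 encodes an eIF5-mimic protein, which competes with the initiation factor eIF5 for eIF2 and so tightens the choice of start codon. ARHGAP1 encodes a GTPase-activating protein that switches off CDC42, a small GTPase that organises actin. PRUNE1 is a phosphoesterase of the DHH family that degrades short polyphosphates and binds the nucleoside diphosphate kinase NME1. ISOC1 carries an isochorismatase-like hydrolase domain and has been catalogued among peroxisomal proteins.

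The start-site windows of the 4 genes are shown because these genes had low signals in the same 2 arrays, so that the DNA around their starts can be compared. Each runs 5′ to 3′ from 250 bases before to 50 bases after the RefSeq start of the gene (GRCh38.p14), and capitals mark every match to a motif searched.
ISOC1, chr5:129094499-129094798, plus strand: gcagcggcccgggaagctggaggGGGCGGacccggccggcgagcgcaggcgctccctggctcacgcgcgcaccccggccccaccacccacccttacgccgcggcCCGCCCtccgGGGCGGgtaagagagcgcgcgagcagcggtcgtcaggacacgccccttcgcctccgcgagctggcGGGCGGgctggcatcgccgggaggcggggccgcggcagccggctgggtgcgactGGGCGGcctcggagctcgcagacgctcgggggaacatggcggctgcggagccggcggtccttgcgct
ARHGAP1, chr11:46700570-46700869, minus strand: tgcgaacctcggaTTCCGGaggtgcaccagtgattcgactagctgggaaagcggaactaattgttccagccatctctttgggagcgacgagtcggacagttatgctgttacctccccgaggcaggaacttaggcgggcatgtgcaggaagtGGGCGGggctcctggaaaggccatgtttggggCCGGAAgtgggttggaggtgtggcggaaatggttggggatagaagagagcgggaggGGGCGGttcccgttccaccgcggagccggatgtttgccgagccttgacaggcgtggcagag
PRUNE1, chr1:151008199-151008498, plus strand: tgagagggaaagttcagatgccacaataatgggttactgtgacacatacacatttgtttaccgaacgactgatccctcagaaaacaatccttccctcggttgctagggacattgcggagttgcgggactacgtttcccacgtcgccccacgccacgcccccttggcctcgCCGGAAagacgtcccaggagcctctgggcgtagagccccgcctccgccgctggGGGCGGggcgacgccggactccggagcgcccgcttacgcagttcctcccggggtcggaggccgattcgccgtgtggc
BZW2, chr7:16645931-16646230, plus strand: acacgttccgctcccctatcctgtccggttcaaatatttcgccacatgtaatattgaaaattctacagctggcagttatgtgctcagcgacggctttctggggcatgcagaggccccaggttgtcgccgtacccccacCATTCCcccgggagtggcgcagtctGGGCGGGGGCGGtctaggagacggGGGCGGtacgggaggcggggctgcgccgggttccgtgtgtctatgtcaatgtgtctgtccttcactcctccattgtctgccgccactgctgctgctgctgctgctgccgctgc

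Both strands were searched for GGGCGG (the GC box), CCGGAA (the core bound by ETS factors), GGAATG (TEAD), TATAAA (the TATA box), CCAAT (bound by the factor NF-Y), CACGTG (the E box) and TGACGTCA (the cyclic AMP response element). The GC box was the one motif found in all 4 windows, with 5 matches in ISOC1, 2 in ARHGAP1, 1 in PRUNE1 and 3 in BZW2. It occurs in 45.0% of all 35116 RefSeq windows of this length, whereas the 4 genes were all bright enough to be tested. The share among tested genes was not computed, for this or the other motifs. CCGGAA was present in ARHGAP1 and PRUNE1, against 17.2% of all windows. GGAATG was present in BZW2 alone, against 14.0%. The other 4 motifs had 0 matches in these windows, and no matches of different motifs overlapped. TATAAA occurs in 11.5% of all windows, CCAAT in 34.6%, CACGTG in 7.26% and TGACGTCA in 1.85%. The ISOC1 window had 79.3% G and C, more than 96.7% of windows, whereas ARHGAP1, PRUNE1 and BZW2 had 60.7%, 63.0% and 61.3%, against a median of 58.7%. These matches describe letters in the windows and do not show that a factor was bound.

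The target MYEOV had signals of 6.20 and 6.50 in the control pair, 5.34 and 5.19 under siRNA 1, then 5.23 and 4.70 under siRNA 2. All 4 siRNA arrays lay below both controls. The MYEOV difference from control was -1.39 ± 0.18 with siRNA 2 and -1.09 ± 0.18 with siRNA 1. Its spread between replicates was wider than in 97.7% of tested genes. The 4 siRNA arrays also lay below the brightness filter of 5.45, which MYEOV passed only through its control arrays. No p-value is therefore given for it. Array medians ran from 4.08 to 4.10. The A549 marker list had 4 of 11 genes with a named row, all keratins (KRT7, KRT8, KRT18 and KRT19), and each passed the brightness filter of 5.45. Their means over the 6 arrays were 8.12, 6.78, 11.98 and 5.55 in that order, so KRT19 passed narrowly. The lowest keratin signal under siRNA 2 was 5.30. Markers of leukocytes, endothelium and fibroblasts had 2, 3 and 2 named genes, and 0 passed that filter in a range of 1.60 to 4.66. Averaged over the keratins, the control pair stood at 8.26 and 8.16, the siRNA 1 pair at 8.19 and 8.14 and the siRNA 2 pair at 7.88 and 8.03. The part of this lower keratin signal in the results was not tested.

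Among the 4 genes, ISOC1 had the lowest signal with siRNA 2 relative to control, below ARHGAP1 by less than the standard error. The order was not stable. Without control replicate 1, ISOC1 (-1.61) lay above ARHGAP1 (-1.63) and PRUNE1 (-1.70). The signal of ISOC1 was 9.05 and 9.02 in the control pair, 8.71 and 8.67 under siRNA 1, then 7.40 and 7.41 under siRNA 2. The 3 groups did not overlap, with siRNA 1 between the others. Relative to control the difference was -1.63 ± 0.07 (SE, n = 2 arrays per group) with siRNA 2, which leaves 32.3% of the control signal, and -0.34 ± 0.07 with siRNA 1, which leaves 78.8%.

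BZW2 was arranged in the same way. It had 8.09 and 8.11 in the control pair, 7.77 and 7.81 under siRNA 1, then 6.58 and 6.71 under siRNA 2. Again no arrays of different groups overlapped, and the siRNA 1 arrays sat below the controls. The difference was -1.46 ± 0.07 with siRNA 2, or 36.4% of the control signal, and -0.31 ± 0.07 with siRNA 1, or 80.6%.

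ARHGAP1 was at 9.67 and 9.70 in the control pair, 9.66 and 9.75 under siRNA 1, then 8.06 and 8.08 under siRNA 2. Here the siRNA 1 arrays overlapped the controls, and the siRNA 2 arrays stood alone. The siRNA 2 difference was -1.61 ± 0.07, leaving 32.7% of the control signal, and the siRNA 1 difference was 0.02 ± 0.07.

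PRUNE1 had 7.34 and 7.61 in the control pair, 7.45 and 7.50 under siRNA 1, then 5.86 and 5.97 under siRNA 2. Both siRNA 1 arrays were inside the control range. The siRNA 2 difference was -1.56 ± 0.10, or 33.9% of control, and the siRNA 1 difference was 0.00 ± 0.10. Its control arrays differed more than those of the other 3 genes (SD 0.19, against 0.01 to 0.03). Without control replicate 1 the siRNA 2 difference was -1.70, and without control replicate 2 it was -1.42.

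In all 4 genes both siRNA 2 arrays lay below the 4 other arrays, which was so for 15.4% of tested genes. This arrangement is what the choice looked for, and nothing is read from its count. In ISOC1 and BZW2 both siRNA 1 arrays also lay below both controls, as in 24.4% of tested genes. For ISOC1 the siRNA 1 difference was 21.1% of the siRNA 2 difference, and for BZW2 it was 21.4%. Thus ISOC1 and BZW2 were also lower with siRNA 1, and ARHGAP1 and PRUNE1 were at the control level with it. In the order of the siRNA 1 difference, ISOC1 had rank 265 and BZW2 rank 328 from the lowest of 7442 tested genes. The spread between replicates, pooled over groups, was 0.02 for ISOC1, 0.04 for ARHGAP1, 0.12 for PRUNE1 and 0.05 for BZW2. That of PRUNE1 was wider than in 74.5% of tested genes and that of ISOC1 wider than in 2.75%.

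**Figure D1:**
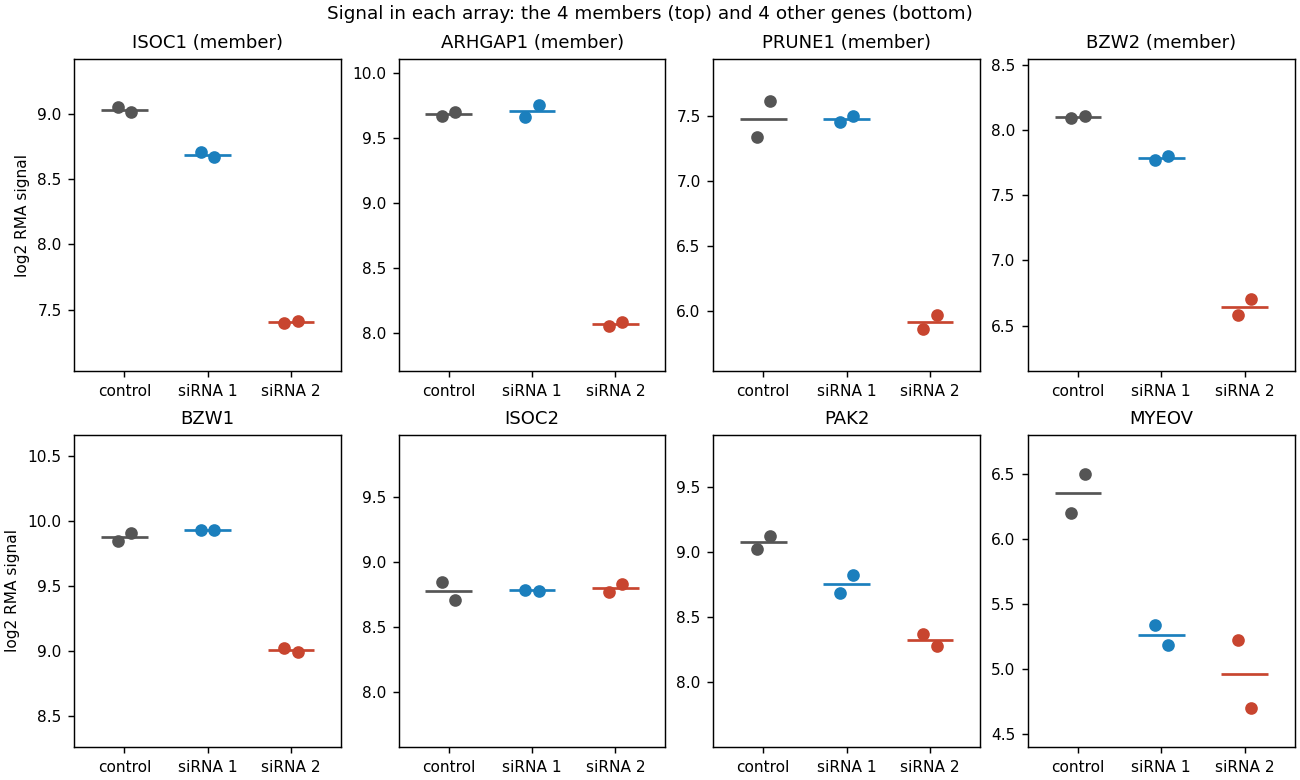
Log2 RMA signal in each of the 6 arrays (points, with the mean of each group as a line) for the 4 members in the top row and for BZW1, ISOC2, PAK2 and MYEOV in the bottom row. Each panel spans 2.4 log2 units; both siRNA 2 points lie below the others in all 4 members, and the siRNA 1 points of ISOC1 and BZW2 lie between, at 8.69 and 7.79 on average.

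The 4 genes are not the lowest 4. In the order of the siRNA 2 difference among tested genes, ISOC1 had rank 3 from the lowest, ARHGAP1 rank 4, PRUNE1 rank 6 and BZW2 rank 9. The mannosyltransferase TMTC3, at -1.99, and the helicase RECQL, at -1.69, came before them. The mRNA export factor ALYREF (-1.60), APAF1 of the apoptosome (-1.53) and ANKRD1 (-1.50) lay between them. The splicing factor SMU1 followed BZW2 at -1.46, with no visible step between them. MYEOV was next at -1.39 and the mitochondrial ribosome rescue factor MRPL58 at -1.28. No sharp threshold therefore separates these 4 from the genes around them.

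Likeness was measured as the distance between 2 genes over the 6 arrays, after each gene's control mean was subtracted, with 0 for identical profiles. Of all tested genes, PRUNE1 was nearest to ARHGAP1 and ARHGAP1 to PRUNE1, at 0.20. BZW2 was nearest to ISOC1 and ISOC1 to BZW2, at 0.27. For ARHGAP1 the next were RECQL (0.21), ALYREF (0.25), SMU1 (0.25) and ANKRD1 (0.33), and for PRUNE1 they were SMU1 (0.22), ALYREF (0.26), RECQL (0.29) and ANKRD1 (0.38). After BZW2, ISOC1 was most like APAF1 (0.27) and ALYREF (0.30), then ARHGAP1 (0.53) and PRUNE1 (0.55). BZW2 was most like APAF1 (0.31), ALYREF (0.32), MRPL58 (0.39) and the GDNF co-receptor GFRA1 (0.47) after ISOC1. These distances rest on the same 6 arrays that chose the genes.

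**Figure D2:**
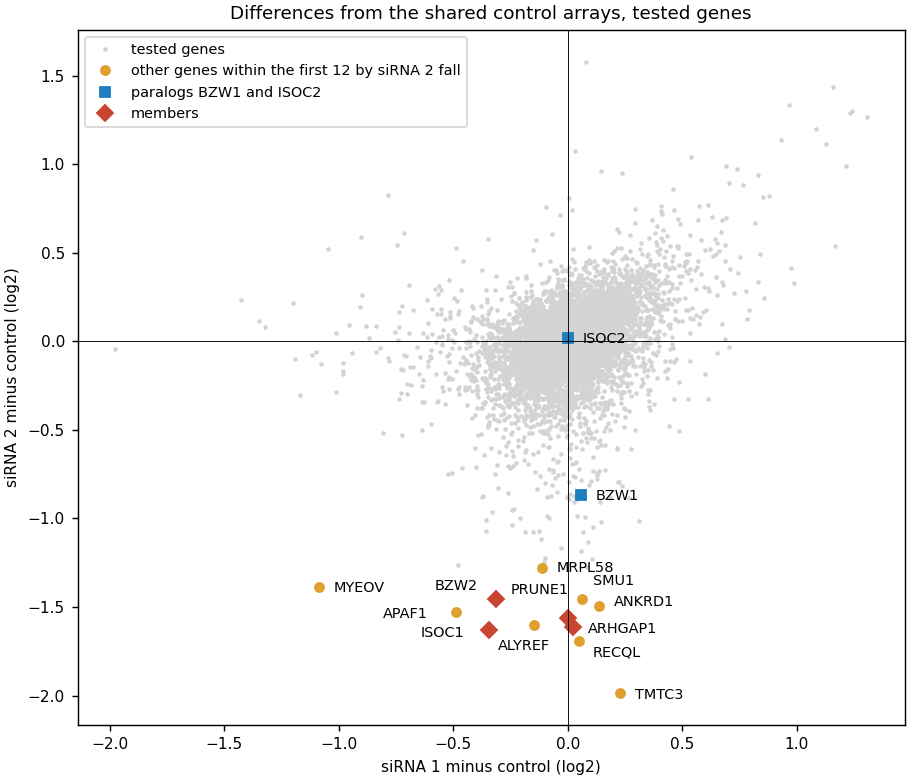
Difference from control with siRNA 1 (horizontal, log2) and siRNA 2 (vertical, log2) for the 7442 tested genes, with the members as diamonds, the paralogs BZW1 and ISOC2 as squares and the other genes of the first 12 by siRNA 2 difference as orange circles. Both axes use the same 2 control arrays. ARHGAP1 and PRUNE1 sit near 0 on the horizontal axis, ISOC1 and BZW2 at -0.34 and -0.31.

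Related genes were taken from 9 lists covering relatives of ARHGAP1 and their partners, phosphate and cyclic nucleotide enzymes, translation initiation and peroxisomes. Of their 348 genes outside the 4, 225 had a named row and 166 were tested. With siRNA 2, limma with Benjamini-Hochberg adjustment over all tested genes called 6 of the 166 lower and 5 higher, against 4.23% of all tested genes lower and 2.59% higher. With siRNA 1 it called 5 lower and 3 higher, against backgrounds of 2.38% and 2.28%. Between the siRNAs, 10 were lower and 6 higher with siRNA 2 than with siRNA 1, against 5.37% and 3.78%. The median difference of the 166 was 0.03 with siRNA 2 and 0.01 with siRNA 1, against 0.00 for all tested genes in each. These counts lie near the background shares and are no result about the lists as a whole.

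BZW1, the paralog of BZW2 and the other eIF5-mimic protein, fell with siRNA 2. Its signal was 9.85 and 9.91 in the control pair, 9.93 and 9.93 under siRNA 1, then 9.02 and 9.00 under siRNA 2. The siRNA 2 arrays stood apart from the 4 others, and the siRNA 1 arrays were slightly above the controls. BZW1 fell by 0.87 ± 0.07 with siRNA 2 (SE, limma, adjusted p = 0.000632), whereas the siRNA 1 difference was 0.06 ± 0.07 (adjusted p = 0.703). The siRNAs differed in BZW1 by -0.92 ± 0.07 (siRNA 2 minus siRNA 1, limma, adjusted p = 0.000420). The fall was called under all 16 alternatives, with adjusted p from 1.59e-05 to 0.0135. Whether the array's probes for one BZW gene also bind transcripts of the other was not tested.

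Of the translation initiation list, 21 of 54 genes were tested, and 3 were called lower and 1 higher with siRNA 2. Over all tested genes 4.23% were called lower and 2.59% higher with siRNA 2. No set test was run on this or any other list, so such small counts are no result about a list. The median was -0.08. EIF1AD, an eIF1A-domain protein, fell by 0.57 ± 0.10 (limma, adjusted p = 0.0206), and EIF4E, which binds the mRNA cap, fell by 0.31 ± 0.07 (adjusted p = 0.0446). EIF1AD lost its call with no filter (0.135), without control replicate 1 (0.108) and without siRNA 2 replicate 2 (0.100), in a range of 0.00390 to 0.135. EIF4E kept its call in 5 of the 15 alternatives that tested it and lost it without any 1 of the 6 arrays. Over those 15 its adjusted p ran from 0.0425 to 0.229. PDCD4, an inhibitor of the helicase eIF4A, rose by 1.30 ± 0.09 with siRNA 2 and by 1.24 ± 0.09 with siRNA 1 (limma, adjusted p = 0.000620 and 0.00144). EIF5, the factor that BZW2 mimics, was at -0.15 ± 0.08 with siRNA 2 and -0.02 ± 0.08 with siRNA 1, neither called (limma, adjusted p = 0.364 and 0.907).

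Besides PDCD4, which was higher, siRNA 1 had 2 calls in this list, both lower. Over all tested genes 2.38% were called lower and 2.28% higher with siRNA 1. EIF4EBP2, which sequesters EIF4E, fell by 0.55 ± 0.07, and DENR, which acts in reinitiation and ribosome recycling, fell by 0.37 ± 0.07 (limma, adjusted p = 0.00837 and 0.0346). Both had positive differences with siRNA 2, of 0.16 and 0.14, that were not called (limma, adjusted p = 0.250 and 0.298). EIF4EBP2 kept the siRNA 1 call in 12 of 16 alternatives and lost it with no filter (0.0953), without control replicate 2 (0.0596) and without siRNA 1 replicate 1 (0.0633) or 2 (0.0663), in a range of 0.000434 to 0.0953. DENR kept the siRNA 1 call in 8 of 16 alternatives and lost it without any 1 of the 6 arrays. Over all 16 its adjusted p ran from 0.00806 to 0.200.

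Around ARHGAP1, 56 other RhoGAPs were listed and 23 were tested, with a median of 0.01 with siRNA 2. Limma called 2 lower and 0 higher, against 4.23% and 2.59% of all tested genes. ARHGAP17, a GAP of CDC42 and RAC1 at epithelial junctions, had 8.08 and 8.17 in the control pair, 8.17 and 8.17 under siRNA 1, then 7.67 and 7.72 under siRNA 2. Both siRNA 2 arrays were below the rest. ARHGAP17 fell by 0.43 ± 0.07 (limma, adjusted p = 0.0143) and kept the call in 12 of 16 alternatives. It lost it with no filter (0.125) and without replicate 2 of the control (0.0743) or replicate 1 (0.0880) or 2 (0.0683) of siRNA 2, in a range of 0.00233 to 0.125. ARHGAP35, the p190 RhoGAP, fell by 0.31 ± 0.07 (limma, adjusted p = 0.0476). ARHGAP35 kept the call in 6 of 16 alternatives and lost it without any 1 of the 6 arrays. Over all 16 its adjusted p ran from 0.00935 to 0.238. ARHGAP29 rose with siRNA 1, by 0.38 ± 0.07 (limma, adjusted p = 0.0342), and was at 0.01 ± 0.07 with siRNA 2. It lost the siRNA 1 call with no filter (0.197) and without any 1 of the control or siRNA 1 arrays (0.117 to 0.170), in a range of 0.0273 to 0.197.

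Among the 32 tested RhoGEFs the median with siRNA 2 was -0.03. Limma called 1 higher and 0 lower, against 2.59% and 4.23% of all tested genes. That gene was VAV1, at 0.50 ± 0.11 (limma, adjusted p = 0.0494). VAV1 kept the call in 3 of the 15 alternatives that tested it and lost it without any 1 of the 6 arrays. Over those 15 its adjusted p ran from 0.0316 to 0.220. Of the 30 tested RhoGDIs and effectors, 1 was lower and 1 higher, against the same 4.23% and 2.59%, with a median of 0.05. The lower one was PAK2, a kinase that active CDC42 and RAC switch on. PAK2 had 9.02 and 9.13 in the control pair, 8.68 and 8.82 under siRNA 1, then 8.37 and 8.28 under siRNA 2, so the 3 groups were ordered without overlap. It fell by 0.75 ± 0.08 with siRNA 2 (limma, adjusted p = 0.00292) in all 16 alternatives (0.000248 to 0.0394), and was at -0.32 ± 0.08 with siRNA 1 (adjusted p = 0.0866). The higher one, CDC42EP4, a CDC42 effector, was at 0.30 ± 0.07 (limma, adjusted p = 0.0499). CDC42EP4 kept the call in 5 of 16 alternatives and lost it without any 1 of the 6 arrays. Over all 16 its adjusted p ran from 0.0136 to 0.241.

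Around PRUNE1, 13 of 21 polyphosphate, pyrophosphate and nucleoside diphosphate enzymes and partners were tested, and 0 were called in any of the 3 comparisons. Their differences with siRNA 2 ran from -0.10 to 0.22, with a median of 0.08. GSK3B, a kinase reported to bind PRUNE1, was at -0.10 ± 0.07 with siRNA 2 and 0.01 ± 0.07 with siRNA 1 (limma, adjusted p = 0.495 and 0.967). NME1 was not analysed here. The paralog PRUNE2 had a mean signal of 2.47 and was below the filter. BNIP2 was the 1 tested gene of the 5 with a BCH or CRAL-TRIO domain related to that of ARHGAP1 or PRUNE2. It was at -0.14 with siRNA 2 and -0.23 with siRNA 1, and was called with neither.

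Cyclic nucleotide phosphodiesterases, an activity also assigned to PRUNE1, had 5 tested genes of 19. With siRNA 2, 0 were called, and the median was -0.17. With siRNA 1, 2 were called lower and 0 higher, against 2.38% and 2.28% of all tested genes. PDE7A fell by 0.55 ± 0.09 and PDE8A by 0.40 ± 0.07 (limma, adjusted p = 0.0198 and 0.0334), both enzymes that degrade cyclic AMP. PDE7A lost the call with no filter (0.139), without control replicate 2 (0.0879) and without siRNA 1 replicate 1 (0.0965) or 2 (0.135), in a range of 0.0120 to 0.139. PDE8A kept the call in 8 of 16 alternatives and lost it without any 1 of the 6 arrays. Over all 16 its adjusted p ran from 0.00742 to 0.192.

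Around ISOC1, the paralog ISOC2 was not called in any comparison. It had 8.85 and 8.71 in the control pair, 8.78 and 8.78 under siRNA 1, then 8.77 and 8.83 under siRNA 2, and both siRNA groups lay inside the control range. Its siRNA 2 difference was 0.02 ± 0.07 (limma, adjusted p = 0.904). Of 58 peroxisome genes and relatives, 31 were tested, and 2 were called higher and 0 lower with siRNA 2, with a median of 0.06. Over all tested genes 2.59% were called higher and 4.23% lower with siRNA 2. CAT, the catalase that breaks down hydrogen peroxide, had 8.67 and 8.57 in the control pair, 8.90 and 8.86 under siRNA 1, then 9.07 and 9.11 under siRNA 2, and the groups did not overlap.

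CAT rose by 0.47 ± 0.07 with siRNA 2 (limma, adjusted p = 0.0109) and was at 0.26 ± 0.07 with siRNA 1 (adjusted p = 0.0970). It lost the siRNA 2 call with no filter (0.100) and without replicate 2 of the control (0.0632) or replicate 1 (0.0552) or 2 (0.0722) of siRNA 2, in a range of 0.00163 to 0.100. ACAA1, the thiolase of peroxisomal fatty acid oxidation, rose by 0.36 ± 0.08 (limma, adjusted p = 0.0418). ACAA1 kept this call in 5 of the 15 alternatives that tested it and lost it without any 1 of the 6 arrays. Over those 15 its adjusted p ran from 0.0382 to 0.218. FAR1, which makes fatty alcohols for ether lipids, fell with siRNA 1 by 0.42 ± 0.07 (limma, adjusted p = 0.0214) and was at 0.20 ± 0.07 with siRNA 2 (adjusted p = 0.142). FAR1 lost the siRNA 1 call with no filter (0.156) and without any 1 of the control or siRNA 1 arrays (0.0708 to 0.135), in a range of 0.00214 to 0.156.

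**Figure D3:**
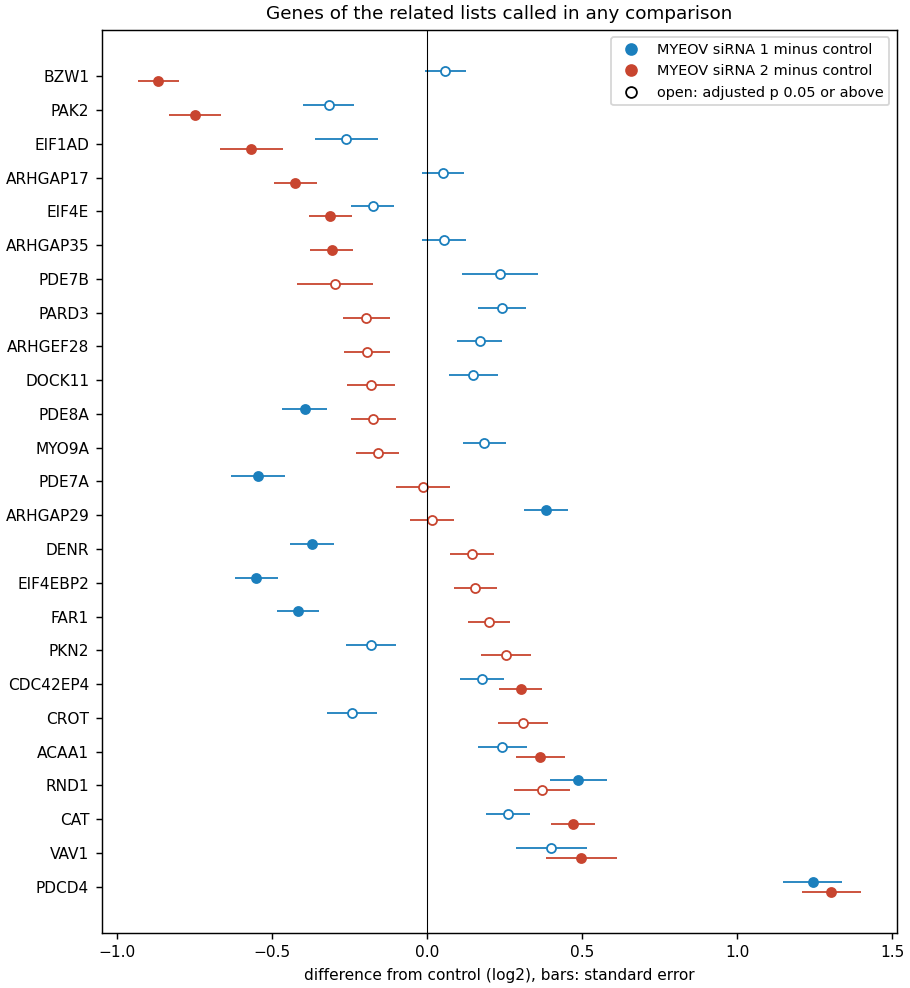
Difference from control (log2, points, with standard errors as bars, n = 2 arrays per group) with siRNA 1 in blue and siRNA 2 in red for every gene of the 9 lists called in any of the 3 comparisons. Filled points passed an adjusted p of 0.05; BZW1 and PAK2 are the lowest with siRNA 2, at -0.87 and -0.75, and PDCD4 is the highest with both.

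The genomic neighbours of the 4 genes were examined as a property the choice did not use. In the RefSeq order of GRCh38.p14, the 3 nearest tested genes on either side of each member gave 24 neighbours on chromosomes 5, 11, 1 and 7. With siRNA 2 their differences ran from -0.51 to 0.44 with a median of -0.02. Limma called 1 lower and 1 higher, both near ISOC1: the microfibril gene FBN2, at -0.51 ± 0.12 (adjusted p = 0.0490), and the respiratory chain assembly factor LYRM7, at 0.44 ± 0.10 (adjusted p = 0.0489). Over all tested genes 4.23% were called lower and 2.59% higher with siRNA 2, so 1 of 24 in each direction lies near the background and is no result about the neighbours. FBN2 kept its call in 7 of 16 alternatives and lost it without any 1 of the arrays except control replicate 1. Over all 16 its adjusted p ran from 0.0138 to 0.220. LYRM7 kept its call in 7 of the 15 alternatives that tested it. It lost the call without any 1 of the control or siRNA 2 arrays. Over those 15 its adjusted p ran from 0.0376 to 0.224. The nearest tested genes on either side of ARHGAP1, the autophagy factor ATG13 and the prothrombin gene F2, were at -0.06 and 0.23. Those beside PRUNE1, the ceramide synthase CERS2 and the CDC42 effector CDC42SE1, were at -0.01 and 0.21, and those beside BZW2, ANKMY2 and TSPAN13, at 0.05 and 0.10. With siRNA 1, 1 neighbour was called: CTSS, the lysosomal protease cathepsin S near PRUNE1, rose by 0.69 ± 0.10 (limma, adjusted p = 0.0126). The background of genes called higher with siRNA 1 was 2.28%. CTSS lost the call with no filter (0.104) and without siRNA 1 replicate 1 (0.0708) or 2 (0.103), in a range of 0.00363 to 0.104.

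**Figure D4:**
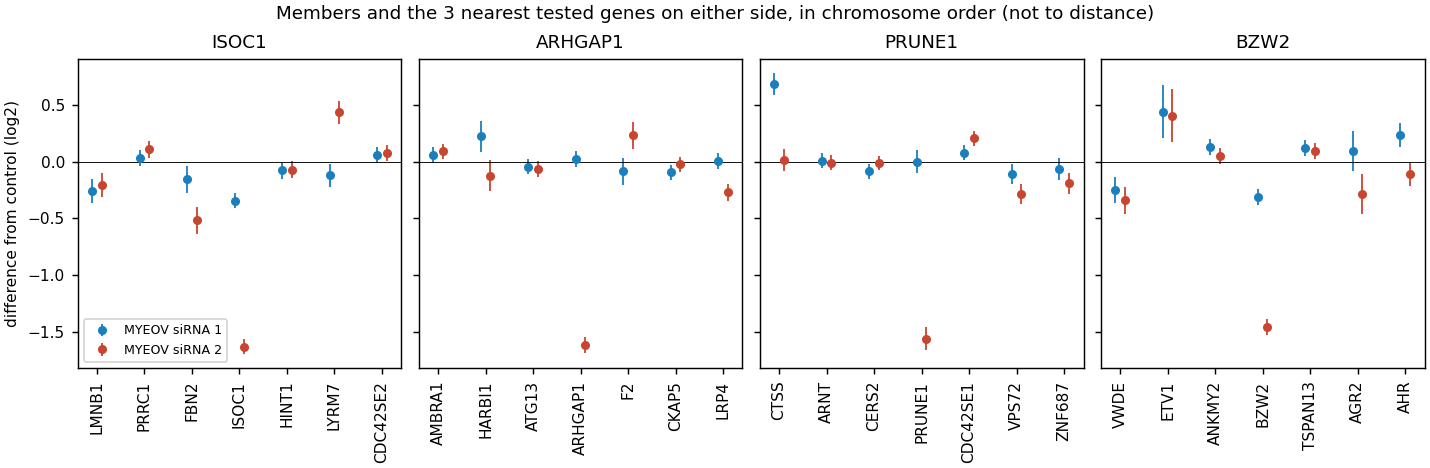
Difference from control (log2, points, with standard errors as bars, n = 2 arrays per group) for each member and the 3 nearest tested genes on either side, in chromosome order, with siRNA 1 in blue and siRNA 2 in red. The horizontal axis shows order and not distance. The red points of the members lie between -1.63 and -1.46, and those of the neighbours between -0.51 and 0.44.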

How the data were processed

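RNA from A549 cells was measured on 6 Affymetrix whole-transcript arrays, 2 per group. The authors deposited log2 signals; the submitters' processing notes name RMA without a version. RMA corrects background, makes the distributions of the arrays alike and summarises probes, and it compresses differences of dim genes. The platform annotation gave 16098 of 53617 rows exactly 1 gene symbol, several to 0 and none to 37519, and all 16098 matched the RefSeq gene table of GRCh38.p14 by gene identifier. The brightest row stood for the 779 genes with several. Genes with a mean at or above 5.45, the median of named genes, were tested.

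Limma 3.58.1 (R 4.3.3; lmFit, eBayes) was fitted to all 6 arrays as 3 groups, with 3 residual and 4.09 prior degrees of freedom, and p-values were adjusted by Benjamini-Hochberg over the 7442 tested genes, with calls under 0.05. The steps were tested on simulated data. The smallest p of a two-sided exact permutation test at this size is 0.333, so calls rest on sharing the spread between genes. Both siRNAs share the control arrays.

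The members and the gene lists were chosen with earlier results of these data known. Text names the members, MYEOV, paralogs and partners, list genes called in any comparison (up to 6 per comparison and direction), the 5 genes most like each member, 3 tested neighbours on either side and genes between members in the order of differences; the result of 1 list is not reported here. The 16 alternatives changed the filter, the row of a gene, the normalization, the arrays fitted, the replicate block, the variance prior and the array weights, or left out 1 array. Figures were drawn with matplotlib 3.10.9.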

Additional observations from a re-analysis of the deposited data

Results flagged for a closer look

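The related genes below differed between the 2 siRNAs, by limma on siRNA 2 minus siRNA 1 with Benjamini-Hochberg adjustment over all tested genes. Of the 166 tested, 10 were lower and 6 higher with siRNA 2, against 5.37% and 3.78% of all tested genes. These counts lie near the background and are no result about the lists. BZW1 differed by -0.92 (adjusted p = 0.000420), EIF4EBP2 by 0.71 (0.00133) and FAR1 by 0.62 (0.00229), each called under all 16 alternatives, with highest adjusted p of 0.0108, 0.0217 and 0.0330. CROT, a peroxisomal carnitine transferase, differed by 0.55 and DENR by 0.52. PDE7A differed by 0.53 and PDE7B by -0.53. ARHGAP17 differed by -0.48, ARHGAP29 by -0.37, ARHGAP35 by -0.36, MYO9A by -0.34, ARHGEF28 by -0.36 and DOCK11 by -0.33. PARD3 differed by -0.44, PAK2 by -0.43 and PKN2 by 0.43. Adjusted p of these 13 ran from 0.00585 to 0.0447. CROT, PDE7B, MYO9A, ARHGEF28, DOCK11, PARD3 and PKN2 were called against control with neither siRNA. EIF4EBP2, FAR1, DENR, PDE7A and ARHGAP29 were called against control with siRNA 1 and not with siRNA 2. Of the 16 genes, 4 were called without siRNA 1 replicate 1, 4 without siRNA 1 replicate 2, 6 without siRNA 2 replicate 1, 8 without siRNA 2 replicate 2 and 15 without either control array.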

How the results depend on the processing

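No difference of the 4 members that exceeded its replicate spread changed sign under the 16 alternatives (15 for PRUNE1, which was below the 75th percentile filter). With quantile normalization ISOC1 was at -1.59 with siRNA 2 and -0.31 with siRNA 1. Leaving out 1 array at a time, ARHGAP1 ran from -0.0206 to 0.0699 with siRNA 1 and from -1.68 to -1.59 between the siRNAs, PRUNE1 from -1.70 to -1.42 with siRNA 2 and from -0.14 to 0.14 with siRNA 1, and BZW2 from -1.52 to -1.40 with siRNA 2 and from -1.21 to -1.08 between the siRNAs. Of the related genes, limma called 11, 8 and 16 for siRNA 2, siRNA 1 and their difference. With no filter there were 3, 1 and 3. With only the 2 groups compared there were 7, 5 and 18, and with array quality weights 6, 8 and 19. The trended and robust variance prior gave 12, 12 and 23, and the 75th percentile filter 12, 8 and 20. Without 1 array there were 3 to 7, 1 to 5 and 4 to 18. The cause was not tested. With the replicate block there were 11, 9 and 19, of which 10, 8 and 16 were among the genes above. With siRNA 2 the block left VAV1 (adjusted p = 0.0549) and the neighbour LYRM7 (0.0515) uncalled. Same-numbered arrays deviated together, with correlations of 0.205 to 0.265 between groups, but the labels tie the numbers to no shared batch and there are only 2 numbers. The number of arrays limits the precision, and differences of the size of EIF4E, at -0.31, sit at the edge of what was called.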

Other observations

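In the order of the siRNA 2 minus siRNA 1 difference, ARHGAP1 had rank 3 from the lowest of all tested genes, PRUNE1 rank 5, ISOC1 rank 11 and BZW2 rank 18. Genes between them that are not described above include the cell cycle kinase CDK6, at -1.32, the autophagy initiator ATG14, at -1.33, and the lipid flippase subunit TMEM30A, at -1.36. The mitochondrial cristae protein APOO had -1.24, JPT2 -1.22, the endosomal protein STARD3NL and the endothelial junction protein HEG1 -1.16 each, and MARCKS, an actin-binding substrate of protein kinase C, -1.15. CDK6 and MARCKS were above control with siRNA 1, by 0.31 and 0.27. GFRA1, the phosphatidylinositol synthase CDIPT and the cholesteryl ester hydrolase NCEH1 followed BZW2, at -1.14 each. The order used the values that chose the members, so it is a description with no test.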
